A study of Homo sapiens with 4 samples.

Results

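The enzymes that write, erase and read DNA methylation were examined in human lung adenocarcinoma cells in which the histone methyltransferase G9a, encoded by EHMT2, was reduced or raised. The genes were the methyltransferases DNMT1, DNMT3A and DNMT3B, the cofactor UHRF1, the oxidases TET1, TET2 and TET3, and the methyl-CpG readers MBD1 and MBD2. The genes were chosen with earlier results of these data known. Every probe set annotated to 1 of these genes and to no other was taken. This gave 23 probe sets for all 9 genes, of 41039 single-gene probe sets for 19741 genes in the series. Probe sets of 1 gene are taken in order of brightness. Each of 4 stably transduced populations was hybridised on 1 Affymetrix array. They were CL1-5 cells expressing the hairpin titled G9a shRNA2, CL1-5 cells expressing control shRNA, CL1-0 cells expressing HA-G9a, and CL1-0 cells expressing control vector. CL1-5 is a more invasive subline of CL1-0. All 4 populations had been selected with puromycin for 2 weeks, and the labels do not say whether a population was a clone or a pool. With 1 array per population there was no replicate check, so no p-value is given for a difference within a line or between single arrays.

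In mammalian cells DNMT1 copies CpG methylation onto the new strand after replication. UHRF1 brings it there by binding hemi-methylated CpG sites and methylated lysine 9 of histone H3, the residue that G9a methylates. DNMT3A and DNMT3B set methylation on unmethylated sites, and in mouse embryonic stem cells G9a has been linked to their recruitment to silenced promoters. TET enzymes oxidise 5-methylcytosine toward its removal, and MBD proteins bind methylated CpG sites and bring corepressors to them.

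Of the 9 genes, each taken by its brightest probe set, none was 2-fold apart between G9a shRNA and control in CL1-5 relative to the median gene, where 15.9% of all measured genes were. None was between HA-G9a and vector in CL1-0, where 9.21% were. As deposited, MBD2 was 2.07-fold higher with G9a shRNA. Between the control arrays of the 2 lines DNMT3B was the only one of the 9 with a bright signal that passed 2-fold. Of all bright genes 19.7% passed it. DNMT3B had a lower signal in both CL1-5 populations than in both CL1-0 populations, as did 17.0% of all genes by deposited signals. The dim TET1 probe set was also past 2-fold between the control arrays.

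The arrays differed in overall level. Their median signals were 14.9 for G9a shRNA, 11.3 for control shRNA, 12.3 for HA-G9a and 11.7 for vector. As a log2 ratio, the median gene stood at 0.42 for G9a shRNA over control, at -0.08 for HA-G9a over vector and at -0.01 for CL1-5 control over CL1-0 vector. Ratios called relative have this median subtracted, and ratios as deposited do not. A probe set counted as measured in a comparison when the brighter array reached 12.5, the median of the whole table, and as bright when that array reached 84.2, the 75th percentile. EHMT2 followed the labels, at 28.1 with G9a shRNA against 376 in its control and 862 with HA-G9a against 420 with vector, a relative log2 ratio of -4.16 and of 1.12. As a technical yardstick, the log2 ratios of different probe sets of 1 gene had a pooled SD of 0.54, 0.51 and 0.65 in these 3 comparisons among measured probe sets, and of 0.30, 0.25 and 0.41 among bright ones. The labels trace the tumour to type II alveolar cells. The surfactant gene SFTPC, which defines that cell type, read 29.8 with G9a shRNA and 33.5 in its control, and 6.72 with HA-G9a and 21.3 with vector, none of them bright. The summed signal of 8 type II markers lay between 163 and 179 in CL1-5 and between 144 and 151 in CL1-0, while single markers moved in opposite directions. Of 6 measured in the knockdown, ABCA3 and NAPSA passed 2-fold higher and NKX2-1 lower, at 3.87 against 29.6, by relative ratios. Of 4 measured with HA-G9a, NKX2-1 passed it higher, at 60.2 against 31.2, and SFTPC lower. Of 3 leukocyte markers on the array, PTPRC, which defines those cells, was below 12.5 on all 4 arrays. LCP1 read 15.6 with G9a shRNA and 23.4 in its control, and 11.7 with HA-G9a and 18.0 with vector, and CD3E reached 12.5 only with G9a shRNA, at 15.2. The 5 epithelial markers summed to 2955 with G9a shRNA and 3711 in its control, and to 2328 with HA-G9a and 652 with vector, with KRT19 at the floor throughout. KRT18 and KRT8 carried these sums, while CDH1 read 77.6 with G9a shRNA against 2.36 in its control, and EPCAM 18.1 against 6.06. The 5 fibroblast markers summed to 73.9 with G9a shRNA, 35.3 in its control, 156 with HA-G9a and 443 with vector. The 5 endothelial markers summed to 94.8, 401, 25.3 and 42.3 on those arrays in the same order, and their part in the results below was not tested.

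**Figure D1:**
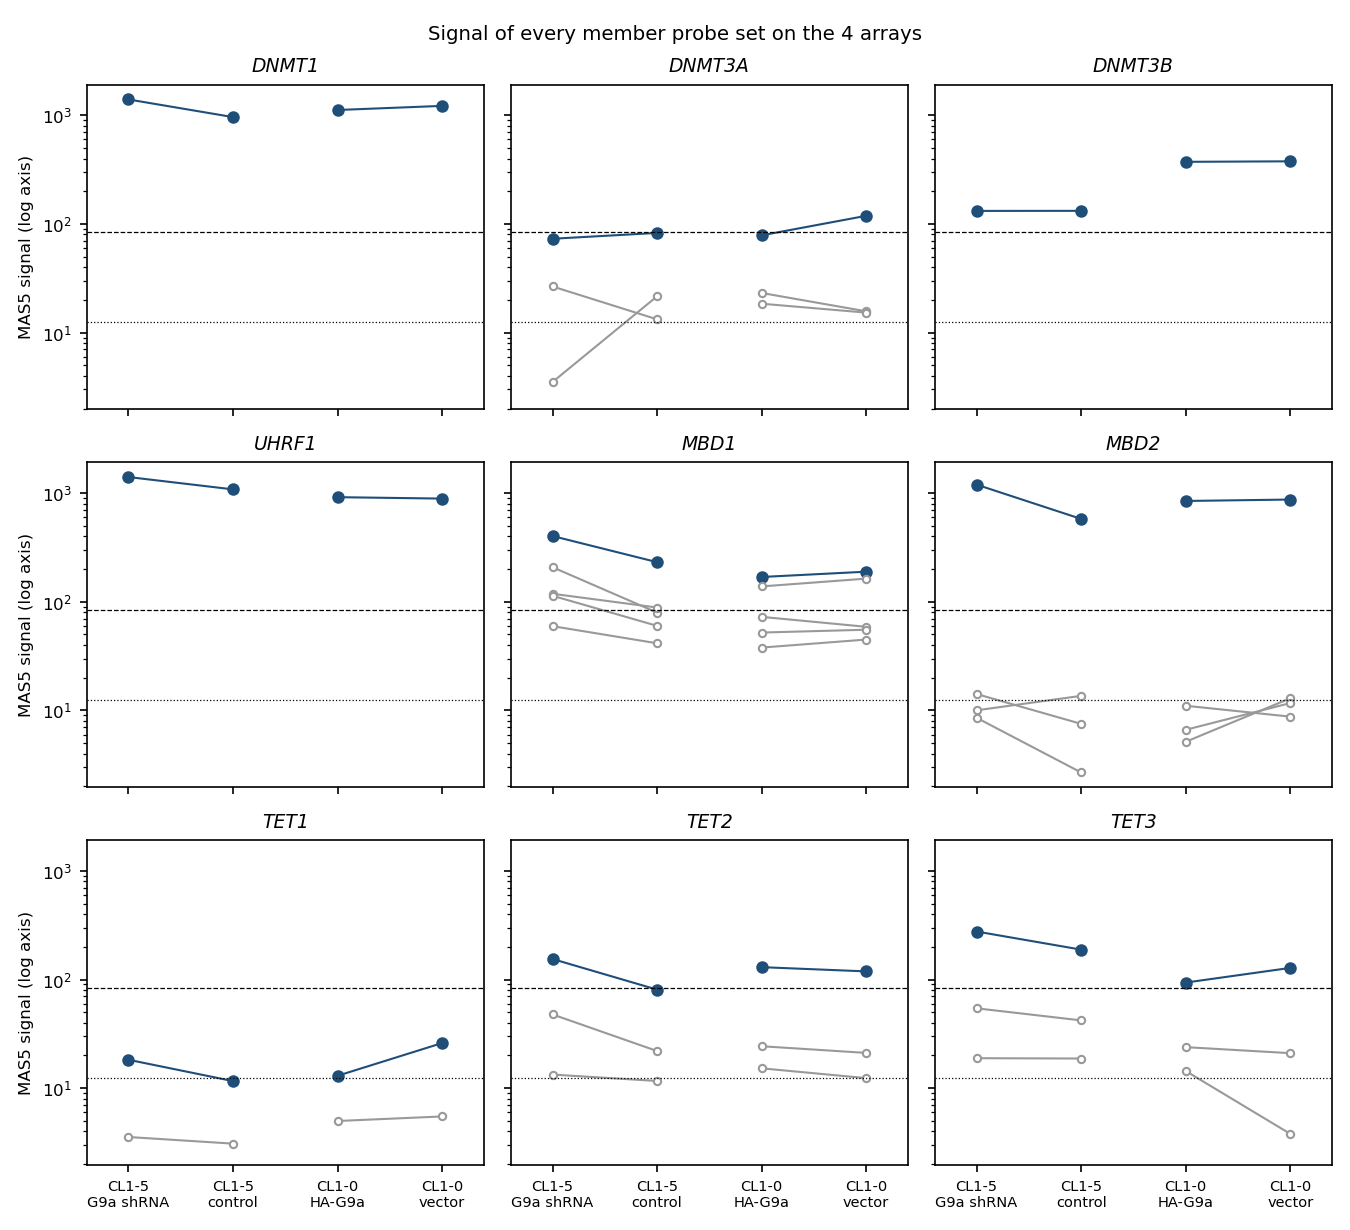
Deposited MAS5 signal (log axis) of all 23 probe sets of the 9 genes on the 4 arrays. Filled blue points are the brightest probe set of each gene, open grey points the others. Lines join the 2 arrays of a line. The dotted line is at 12.5 and the dashed line at 84.2. DNMT3B lies near 132 on both CL1-5 arrays and above 373 on both CL1-0 arrays.

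The genes of maintenance methylation were bright and lay near the median gene in both lines. DNMT1, with 1 probe set, read 1399 with G9a shRNA against 963 in control, and 1119 with HA-G9a against 1221 with vector. Its relative log2 ratios were 0.12 and -0.04. UHRF1, also with 1, read 1405 with G9a shRNA against 1082 in control, and 917 with HA-G9a against 890 with vector. Its relative log2 ratios were -0.04 and 0.13. Both genes were therefore brighter on the knockdown array by about as much as the median gene of that array. Among the 13045 genes measured in the knockdown comparison, 81.5% were at least as far from the median gene as DNMT1, and 93.4% were at least as far as UHRF1. In the control arrays of the 2 lines the relative log2 ratio, CL1-5 over CL1-0, was -0.33 for DNMT1 and 0.30 for UHRF1, within the yardstick SD of 0.41 for bright probe sets.

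DNMT3B was lower in both CL1-5 populations than in both CL1-0 populations. Its single probe set read 131.9 with G9a shRNA and 132.1 in control, against 373.1 with HA-G9a and 377.1 with vector. Within a line the deposited signals were almost equal. The lines did not overlap, where 54.5% of all genes did not and 17.0% were lower in CL1-5. The log2 ratio of CL1-5 control over CL1-0 vector was -1.51 as deposited and -1.50 relative, a signal 2.83-fold lower in CL1-5. Of the 12925 genes measured in that comparison 15.8% were at least this far from the median gene in either direction, and of the 8291 bright ones 11.1%. G9a shRNA over control gave -0.00 as deposited and -0.42 relative, more than the yardstick SD of 0.30 for bright probe sets. Of the genes measured in the knockdown comparison 44.0% were at least as far from the median gene, and of the bright ones 36.1%. The brightest probe sets of TET2 (0.52), MBD1 (0.38) and MBD2 (0.63) also passed that SD. For DNMT3B, HA-G9a over vector gave -0.02 as deposited and 0.07 relative.

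DNMT3A gave low signals and its 3 probe sets disagreed. The brightest read 73.1 with G9a shRNA against 82.7 in control, and 78.6 with HA-G9a against 119 with vector, relative log2 ratios of -0.60 and -0.51. The second went the other way in both lines, at 26.6 with G9a shRNA against 13.3 in control and 23.2 with HA-G9a against 15.7 with vector, ratios of 0.58 and 0.64. The third read 3.51 with G9a shRNA against 21.6 in control, a relative log2 ratio of -3.04, and 18.5 with HA-G9a against 15.3 with vector. It was the only one of the 21 measured probe sets past 2-fold after the knockdown, and its low value lay just above the floor of 3.35 below which signals were not distinguished. With the brightest probe set alone DNMT3A was 2-fold apart in neither line, and with the median of its probe sets the HA-G9a ratio turned to 0.34.

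Upstream sequence was set beside the values for 3 of the genes, DNMT3B because it separated the lines, MBD2 because its brightest probe set had the highest knockdown ratio among the brightest probe sets of the 9, and UHRF1 because it held E2F letters. Each sequence is the 250 bases before an annotated start, from the RefSeq promoter table on GRCh38.p14, 5′ to 3′ on the gene's strand, with CpG sites in capitals.
DNMT3B, chr20:32779602-32779851, plus strand: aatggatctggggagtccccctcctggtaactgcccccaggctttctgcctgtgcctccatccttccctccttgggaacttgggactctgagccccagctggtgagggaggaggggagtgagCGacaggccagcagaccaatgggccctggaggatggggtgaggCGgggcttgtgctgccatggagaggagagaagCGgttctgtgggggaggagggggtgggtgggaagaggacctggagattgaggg
MBD2, chr18:54224670-54224919, minus strand: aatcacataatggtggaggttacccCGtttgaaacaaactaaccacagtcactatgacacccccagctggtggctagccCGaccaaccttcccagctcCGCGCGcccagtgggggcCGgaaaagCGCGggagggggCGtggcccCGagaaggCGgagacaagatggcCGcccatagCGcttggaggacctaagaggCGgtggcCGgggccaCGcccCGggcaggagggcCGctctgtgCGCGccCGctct
UHRF1, chr19:4909251-4909500, plus strand: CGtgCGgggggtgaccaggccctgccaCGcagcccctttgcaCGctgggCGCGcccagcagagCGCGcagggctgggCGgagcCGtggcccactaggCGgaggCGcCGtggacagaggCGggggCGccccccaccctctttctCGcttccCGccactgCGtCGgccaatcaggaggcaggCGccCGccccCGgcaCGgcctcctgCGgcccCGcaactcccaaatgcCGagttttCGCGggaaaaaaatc

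The DNMT3B window held 3 CpG sites, the MBD2 window 21 and the UHRF1 window 28. All 9 genes matched the table, with 20 windows, some of them overlapping, that held between 3 and 41 CpG sites (median 21.5). The median over all 35116 windows was 11, and 29.3% held 3 or fewer. The DNMT3B window was the table's only entry for that gene and lies within the annotated gene, so it describes that start alone. UHRF1 had 3 windows, all within the annotated gene, and 1 is printed. Its others held 32 and 41 CpG sites. Letters of an E2F site, searched on both strands as TTTGGCGC, TTTCGCGC, TTTCCCGC and TTTGCCGC, occurred in 2 of the 20 windows, both of UHRF1, and in 2.79% of all windows. The GC box letters GGGCGG occurred in 11 of 20 windows against 42.6% of all, and CCAAT in 6 of 20 against 32.0%. These matches describe letters and show no binding.

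TET genes gave mixed values at low to moderate signal. TET2, a dioxygenase often mutated in blood cancers, read 154 with G9a shRNA against 80.7 in control at its brightest probe set, and 130 with HA-G9a against 119 with vector, relative log2 ratios of 0.52 and 0.21. The second read 47.7 against 22.0 in CL1-5 and 15.2 against 12.4 in CL1-0, ratios of 0.70 and 0.38. The third, dimmer still, read 13.3 against 11.6 and 24.3 against 21.1 in those pairs. All 3 TET2 probe sets were thus brighter with HA-G9a than with vector, by a relative log2 ratio of 0.21 to 0.38, less than the yardstick SD of 0.51. In CL1-5 they ranged from -0.22 to 0.70, above and below the median gene.

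TET3 was brighter in CL1-5 by the deposited signals at each of its 3 probe sets. The brightest read 276 with G9a shRNA and 188 in control, against 93.7 with HA-G9a and 128 with vector. The second read 54.3 and 42.1 in CL1-5, against 23.9 and 21.0 in CL1-0. At both, the lines did not overlap. By the brightest probe set of each gene, 37.5% of all genes were higher on both CL1-5 arrays by deposited signals. The control arrays gave relative log2 ratios, CL1-5 over CL1-0, of 0.57 at the brightest TET3 probe set and 1.02 at the second. The third read 18.9 and 18.7 in CL1-5, against 14.4 with HA-G9a and 3.80 with vector, also without overlap. Its relative log2 ratio for HA-G9a over vector was 2.0, whereas the brightest gave -0.37 and the second gave 0.27. The probe set past 2-fold thus rested on a vector signal near the floor.

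TET1, whose CXXC domain binds unmethylated CpG, was dim on all 4 arrays. Its brighter probe set read 18.3 with G9a shRNA against 11.6 in control, and 13 with HA-G9a against 26.0 with vector. The relative log2 ratios were 0.23 and -0.92, and 10.8% of the 12791 genes measured in the HA-G9a comparison lay at least as far from their median. The vector array had the highest TET1 signal of the 4. The ratio of CL1-5 control over CL1-0 vector, -1.15, used the same vector array. The other TET1 probe set lay between 3.09 and 5.49 and was not measured in any comparison.

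MBD2, the reader that recruits the NuRD complex, had the highest knockdown ratio of the 9 genes by the brightest probe sets. With the median over probe sets TET2 was higher, at 0.51 against 0.49 for MBD2. Its brightest probe set read 1196 with G9a shRNA against 578 in control, and 846 with HA-G9a against 872 with vector. The knockdown ratio was 2.07-fold as deposited and 1.55-fold, or 0.63 on the log2 scale, relative to the median gene. Of the genes measured in that comparison, 29.9% were at least as far from the median gene. The HA-G9a ratio was 0.04 relative. By deposited signals the CL1-5 control array was the lowest of the 4 and the knockdown array the highest, so both CL1-0 values lay between them. Divided by the array median, the order changed. The knockdown array then stood at 8.62 and its control at 5.51, both below HA-G9a at 8.89 and vector at 8.66. The other 3 MBD2 probe sets stayed between 2.68 and 14.1 on all arrays and disagreed among themselves in sign.

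MBD1, a reader that works with the H3K9 methyltransferase SETDB1, was brighter as deposited on the knockdown array at all 5 of its probe sets. The brightest read 402 with G9a shRNA against 231 in control, and 169 with HA-G9a against 189 with vector, relative log2 ratios of 0.38 and -0.08. The second read 208 with G9a shRNA against 79.5 in control, 2.61-fold as deposited and a relative log2 ratio of 0.97, just under 2-fold. The 3 others read 118 against 88.5, 114 against 60.0 and 59.6 against 41.5 in that order of groups, ratios of -0.00, 0.50 and 0.10. Relative to the median gene MBD1 therefore ranged from no difference to nearly 2-fold according to the probe set. In CL1-0 its 5 relative ratios ran from -0.16 to 0.39.

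**Figure D2:**
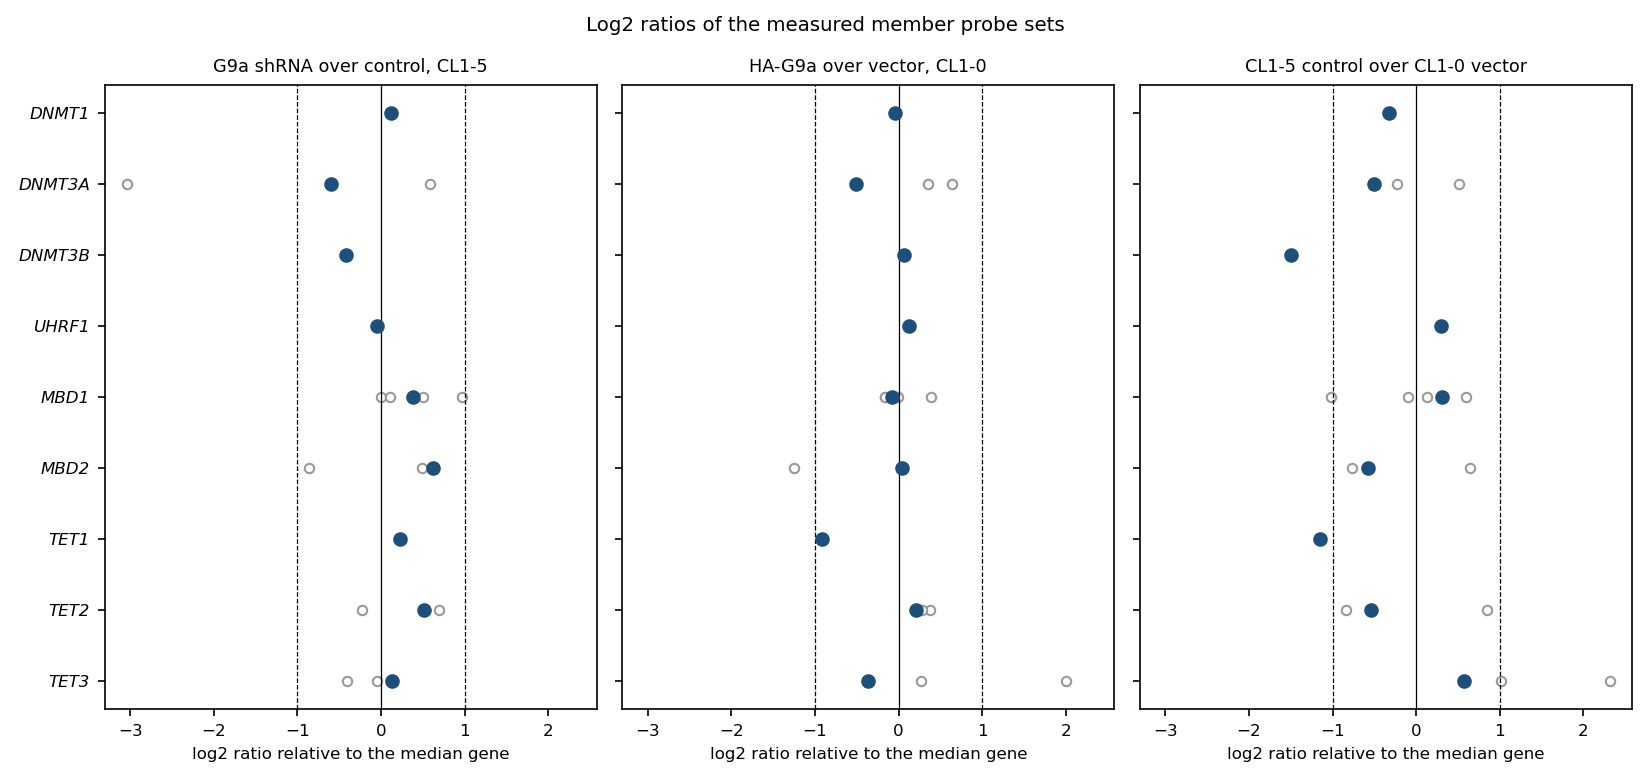
Log2 ratio relative to the median gene (horizontal axis) of each measured probe set of the 9 genes, for G9a shRNA over control, HA-G9a over vector and CL1-5 control over CL1-0 vector. Filled blue points are the brightest probe set of each gene, open grey points the others, and dashed lines mark 2-fold. No filled point passes 2-fold in the first 2 panels, and DNMT3B (-1.50) and TET1 (-1.15) do in the third.

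By count, 0 of the 9 genes passed 2-fold after the knockdown relative to the median gene, where 15.9% of all measured genes did. As deposited 1 gene, MBD2, was past 2-fold higher, where 16.8% of all genes were. The relative log2 ratios of the 9 genes ran from -0.60 for DNMT3A to 0.63 for MBD2, with a median of 0.13, against 0 for all genes by construction. Of the 21 measured probe sets, 0 were past 2-fold higher and 1 lower, where 16.3% of all measured probe sets were past it in either direction. As deposited 4 of them were higher and 1 lower. The share of all probe sets past 2-fold as deposited was not counted, and of all genes 16.8% were higher. Among the 7 genes bright in this comparison none was past 2-fold, where 10.0% of all bright genes were. A count of 0 among so few genes is not set apart from those shares.

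With HA-G9a in CL1-0, 0 of the 9 genes passed 2-fold, where 9.21% of all measured genes did. Their relative log2 ratios ran from -0.92 for TET1 to 0.21 for TET2, with a median of -0.04. Among the 8 bright genes none was past 2-fold, where 2.39% of all bright genes were. Of the 20 measured probe sets 1 was past 2-fold higher, the dim TET3 one, and 1 lower, a dim MBD2 one at 5.14 against 12.9, where 9.64% of all measured probe sets were past it. With the arrays scaled to a common median or quantile normalised, TET1 passed 2-fold lower. The split of all genes past 2-fold depended on the scaling. With HA-G9a it was 699 higher and 479 lower by relative ratios but 555 and 704 with median scaling. In the knockdown it was 1060 and 1012 by relative ratios but 2198 and 618 as deposited.

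Between the control arrays, CL1-5 over CL1-0, 2 of the 9 genes passed 2-fold, DNMT3B and TET1, both lower in CL1-5, where 25.8% of all measured genes passed it in either direction and 13.2% lower. Among the 8 bright genes 1 did, DNMT3B, where 19.7% of all bright genes did. The count of members is thus close to the share of all genes. Of the 21 measured probe sets 2 were higher, both of TET3, and 3 lower, those of DNMT3B, TET1 and the second of MBD1, where 26.3% of all measured probe sets passed. The median relative log2 ratio of the 9 genes was -0.51. This comparison shares the CL1-5 control with the knockdown comparison and the vector array with the HA-G9a comparison. Its arrays also differ in construct, control shRNA against control vector.

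**Figure D3:**
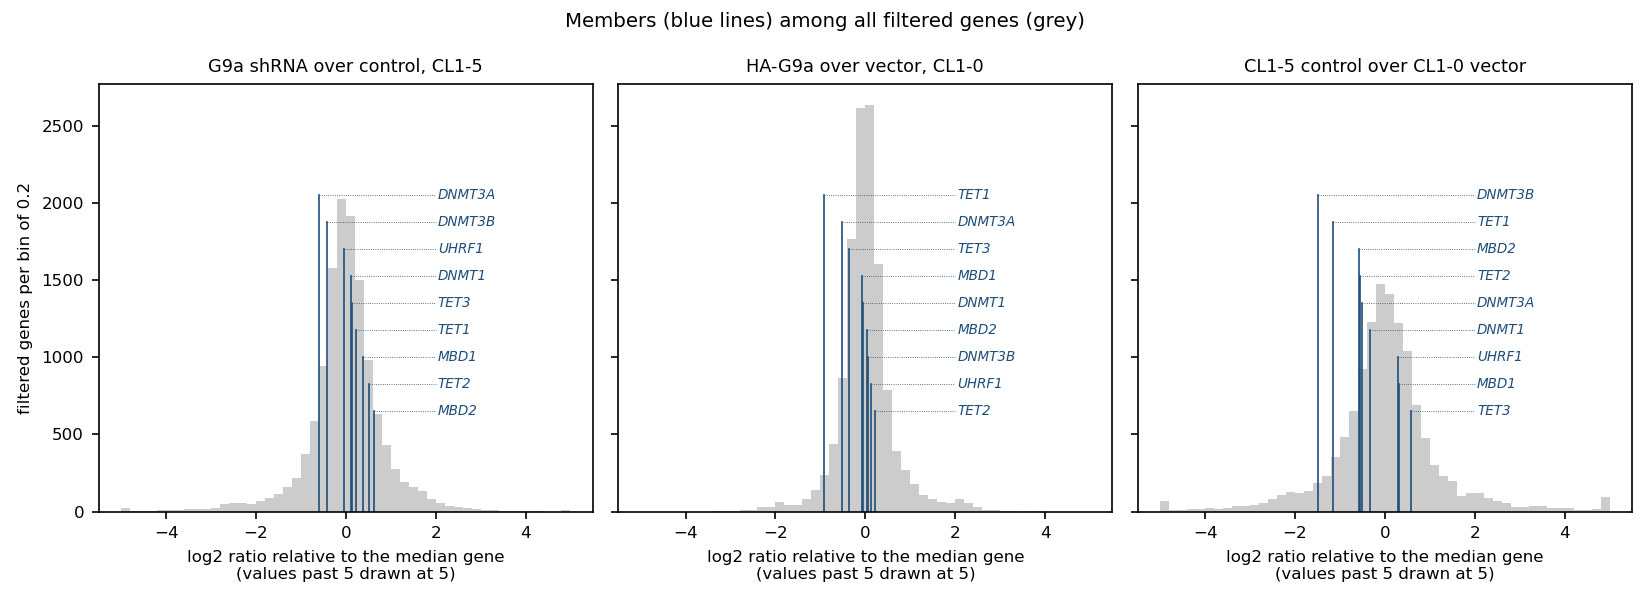
Number of measured genes per bin of 0.2 of the log2 ratio relative to the median gene (grey histogram) in the 3 comparisons, with the 9 genes marked by blue lines of staggered height for legibility. Values past 5 are drawn at 5. The 9 genes lie between -0.60 and 0.63 for G9a shRNA over control and between -0.92 and 0.21 for HA-G9a over vector. The -0.92 is TET1, and 10.8% of the measured genes lie at least as far from the median gene.

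The lines were also compared with both arrays of each, by limma over 13953 genes. The arrays of a line were a control and a perturbed population, so their spread holds any effect of G9a. Both CL1-5 populations expressed an shRNA and both CL1-0 populations HA-G9a or control vector, so line and construct type cannot be told apart. None of the 9 genes passed an adjusted p of 0.05 in limma, where 2.39% of all genes did, and 2 had an unadjusted p under 0.05, where 23.7% of all genes did. DNMT3B was lower in CL1-5 by -1.81 on the log2 scale (SE 0.25, 2 arrays per line), with a limma adjusted p of 0.0562. It passed the threshold in limma with an intensity trend in the variance (adjusted p = 0.0126), with only bright genes tested (0.0283) and with an offset in place of the floor (0.0206). TET3 was higher in CL1-5 by 0.76 (SE 0.25), with a limma unadjusted p of 0.0368 and an adjusted p of 0.183. The other 7 genes had limma adjusted p-values from 0.343 for MBD1 to 0.706 for UHRF1. With each signal divided by its array's median over these 13953 genes, none of the 9 genes overlapped between the lines. Of all genes 58.5% did not overlap, 25.6% higher and 32.9% lower in CL1-5. By the brightest probe set of each gene, UHRF1, TET3 and MBD1 were higher in CL1-5, and DNMT1, DNMT3A, DNMT3B, TET1, TET2 and MBD2 lower. Several gaps were narrow, as for MBD2, at 8.62 and 5.51 times the median of the tested genes in CL1-5 against 8.89 and 8.66 in CL1-0. Another divisor, such as the median of all probe sets, can therefore change which of the 9 genes overlap. Other probe sets differed in direction between the control arrays. There 1 of 3 measured probe sets each of DNMT3A, TET2 and MBD2 lay above the median gene, at most 0.84, for TET2. For MBD1 2 of 5 lay below it, the lowest at -1.02. By deposited signals 4 of the 9 did not overlap, where 54.5% of all genes did not, 37.5% higher and 17.0% lower. For DNMT3B the scaled values were 0.951 with G9a shRNA and 1.26 in control, against 3.92 with HA-G9a and 3.75 with vector.

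Other genes of the pathway were described through 7 lists of 88 genes, of which 82 had a single-gene probe set. By relative ratios, 1 of 68 measured genes was past 2-fold higher after the knockdown and 1 lower, with a median log2 ratio of -0.00. With HA-G9a 2 of 69 were higher and 0 lower (median -0.01). Between the control arrays 3 of 69 were higher and 6 lower in CL1-5 (median -0.07). The shares of all measured genes, either direction, were 15.9%, 9.21% and 25.8%, with medians of 0 by construction. Many listed genes were bright, and of all bright genes 10.0%, 2.39% and 19.7% passed 2-fold. Whether the lists differ from these shares was not tested.

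Partners of the maintenance complex stayed within 2-fold of the median gene. Of 11 measured cofactors of DNMTs and UHRF1, none passed 2-fold in any of the 3 comparisons, with medians of -0.01, 0.07 and 0.13. Of all measured genes 15.9%, 9.21% and 25.8% passed it, and of bright ones 10.0%, 2.39% and 19.7%. HELLS, the chromatin remodeller that opens nucleosomal DNA to methylation, read 570 with G9a shRNA against 393 in control and 366 with HA-G9a against 357 with vector. UHRF2, the paralog of UHRF1, read 479 with G9a shRNA against 682 in control and 246 with HA-G9a against 375 with vector. Its relative log2 ratios were -0.93 and -0.52, lower on the perturbed array in both lines. None of 14 measured S-phase genes passed 2-fold in either G9a comparison (medians -0.12 and 0.03), where 10.0% and 2.39% of all bright genes did. Between the control arrays 1 of them did, CCNE2, a cyclin of S-phase entry, at 494 in CL1-5 against 150 in CL1-0.

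Among 10 other CpG readers, none passed 2-fold relative to the median gene with either change of G9a (medians -0.20 and -0.05). Of all measured genes 15.9% and 9.21% passed it, and of bright ones 10.0% and 2.39%. As deposited CXXC1 was past 2-fold higher in the knockdown, at 518 against 257. Its log2 ratio was 1.01 as deposited and 0.59 relative. Between the lines ZBTB38, a zinc finger reader of methylated DNA, read 594 in CL1-5 control against 259 in CL1-0 vector, a relative log2 ratio of 1.21. CXXC5, a CXXC domain protein, read 30.4 against 67.4, a ratio of -1.13. None of 14 measured NuRD and corepressor genes passed 2-fold in any comparison. Between the control arrays 25.8% of all measured genes and 19.7% of bright ones did. GATAD2B, a NuRD subunit, had relative log2 ratios of -0.84 after the knockdown and -0.69 with HA-G9a, and both of its measured probe sets were below the median gene. MTA1, another subunit, had -0.75 with HA-G9a, where its other probe set had the opposite sign.

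Of 9 measured demethylation and base excision genes 1 passed 2-fold in each G9a comparison, GADD45A (medians -0.11 and 0.24). Of all measured genes 15.9% and 9.21% passed it. GADD45A, a stress-induced gene that has been linked to active demethylation, read 338 with G9a shRNA against 1755 in control and 510 with HA-G9a against 261 with vector. Its relative log2 ratios were -2.80 and 1.05. As deposited the HA-G9a ratio was 0.97, just under 2-fold, and TDG and GADD45B were past 2-fold higher in the knockdown, at 1.41 and 1.20. The CL1-5 control array was the highest of the 4, with a ratio of 2.76 over CL1-0 vector. GADD45B, its paralog, read 219 with G9a shRNA against 95.6 in control and 466 with HA-G9a against 263 with vector, ratios of 0.78 and 0.91, and was lower in CL1-5 than in CL1-0 by the control arrays (-1.45). TDG, the glycosylase that removes the oxidised bases made by TET enzymes, read 772 with G9a shRNA against 290 in control, a relative log2 ratio of 0.99, and 510 with HA-G9a against 436 with vector. Both measured TDG probe sets were above the median gene in both comparisons.

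Of 7 measured methyl donor and 2-oxoglutarate genes 1 passed 2-fold in the knockdown and 0 with HA-G9a (medians 0.06 and -0.14). Of all measured genes 15.9% and 9.21% passed it. D2HGDH, which clears the TET inhibitor D-2-hydroxyglutarate, read 30.8 with G9a shRNA against 2.57 in control, a control signal below the floor, so the ratio of 2.78 depends on the floor. It read 32.3 with HA-G9a against 20.2 with vector, and the low control value also gave -2.58 between the control arrays. IDH2, a mitochondrial source of 2-oxoglutarate, read 78.7 and 85.8 in CL1-5 against 219 and 339 in CL1-0. By deposited signals 17.0% of all genes were likewise lower on both CL1-5 arrays. The IDH2 ratio between the control arrays was -1.97. Its relative ratios were -0.55 after the knockdown and -0.54 with HA-G9a. Of 14 germline genes often silenced by DNA methylation, 3 were measured in the knockdown comparison and 4 in each of the others. MAGEA4, a cancer-testis antigen, read 1281 with G9a shRNA against 721 in control and 1592 with HA-G9a against 1570 with vector. MAGEA1 read 963 against 717 and 1267 against 1478 in those pairs. Both were past 2-fold lower in CL1-5 than in CL1-0 by the control arrays, at relative log2 ratios of -1.11 and -1.03. GAGE1 was past 2-fold higher with HA-G9a, at 14.0 against 5.53. The classical germline genes DAZL, DDX4, MAEL, SYCP3, TDRD1, TEX101 and BRDT were not measured in any comparison.

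**Figure D4:**
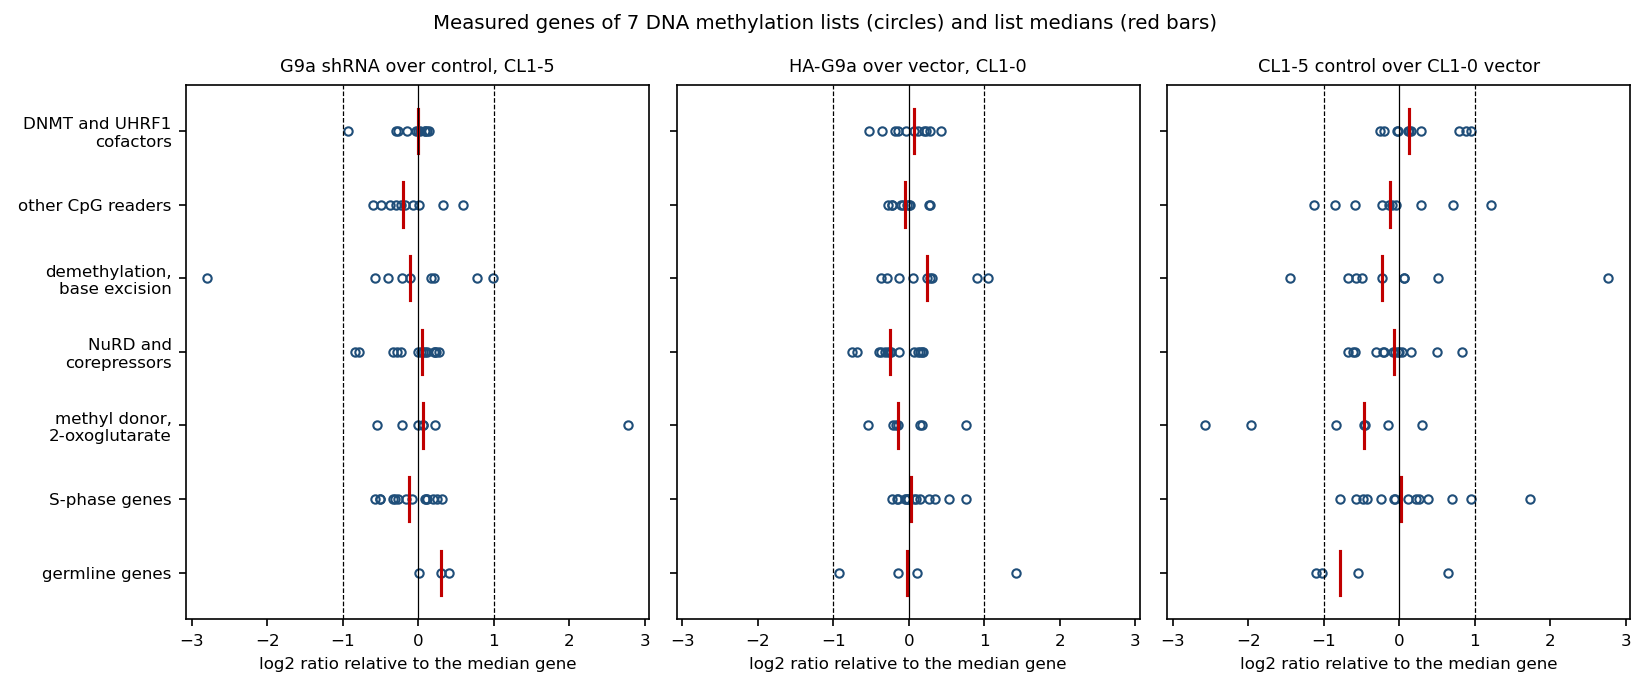
Log2 ratio relative to the median gene (horizontal axis) of the measured genes in 7 lists (circles) with list medians (red bars), for G9a shRNA over control, HA-G9a over vector and CL1-5 control over CL1-0 vector. Dashed lines mark 2-fold. GADD45A (-2.80) and D2HGDH (2.78) are the only circles past 2-fold in the first panel.

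Of the 6 members bright on all 4 arrays, TET3 had the widest range of deposited signals over the arrays, 1.56 on the log2 scale. Divided by each array's median over the genes tested between the lines, DNMT3B ranged more widely, between 0.951 and 3.92, against 0.984 and 1.99 for TET3. The 3 genes with the pattern nearest to TET3 in deposited signals over the 4 arrays, of 6508 compared, were KIF18B, VPS28 and TMEM38B, at distances of 0.05, 0.06 and 0.07 on the centred log2 scale. KIF18B, a mitotic kinesin, read 866 with G9a shRNA and 600 in control, against 307 with HA-G9a and 418 with vector. With 4 arrays such likeness is a description only.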

How the data were processed

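The authors deposited linear intensities of 54675 probe sets in 4 columns, 1 an array, and all were used. MAS5 is the only tool named per the submitters' processing notes, and neither its scaling target nor its presence calls were at hand. Precision is limited by having 1 array a group. Names came from the platform annotation and Entrez identifiers (RefSeq, GRCh38.p14): 41097 probe sets had 1 symbol, 1801 had several, and 11777 without an entry stay unnamed. Probe sets of Y-linked genes and XIST were left out. A gene's value was its probe set with the highest mean signal.

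Signals were floored at 3.35, the 25th percentile of all values, and log2-transformed. Members were compared at a fixed 2-fold size, beside the share of all measured genes past it. The line comparison used limma 3.58.1 in R 4.3.3 (lmFit, eBayes, Benjamini-Hochberg at 0.05, 2 residual degrees of freedom), tested on simulated data. Each array was centred on its median over the genes tested. The other steps ran in Python 3.11.15 (NumPy 2.4.6, SciPy 1.17.1, pandas 2.3.3). Every member was named, and from the lists any gene past 2-fold or up to 4 with the widest ratios. HELLS falls outside this rule and was chosen after its values were seen. The members and lists were chosen with earlier results of these data known. Alternatives were other scalings, floors, filters, fold sizes, probe set choices, limma settings and leaving out each array.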

Additional observations from a re-analysis of the deposited data

How the results depend on the processing

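No paired analysis was possible because each group was 1 array and the labels give no replicate numbers. Over the alternatives the median log2 ratio of the 9 genes lay between 0.12 and 0.55 in the knockdown, the highest as deposited, between -0.20 and 0.06 with HA-G9a, of either sign, and between -0.61 and -0.34 for the control arrays. After the knockdown, where 0 of 9 genes and 2072 of all genes were past 2-fold, 1 of the 9 was as deposited and 2 at 1.5-fold. All genes past the fold were 1057 with an offset of 16, 847 with the stricter filter and its own median, 3244 with no filter and 4201 at 1.5-fold. For HA-G9a, where 0 of 9 and 1178 of all genes were past 2-fold, 1 of the 9 was with median scaling, with quantile normalization and at 1.5-fold, TET1 each time. All genes were 270 with the offset, 187 with the stricter filter, 2320 with no filter and 2607 at 1.5-fold. For the control arrays, where 2 of 9 and 3334 of all genes were past 2-fold, 1 of the 9 was with the offset and with the stricter filter, and 3 were with the median over probe sets, TET3 being higher. All genes were 1993 with the offset, 1637 with the stricter filter and 5740 at 1.5-fold. Taking the median over probe sets moved the HA-G9a ratios of DNMT3A to 0.34, TET3 to 0.25 and MBD2 to -0.62, as their dim probe sets disagreed with the bright ones. In limma, 333 genes and 0 of the 9 were called between the lines. The intensity trend gave 1176 genes, the stricter filter 575 and the offset 874, each with 1 of the 9, DNMT3B. The G9a arm as a second term, which leaves 1 residual degree of freedom, gave 0 genes, with 2937 at an unadjusted p under 0.05. Leaving out 1 array gave 0 to 113 genes and 0 of the 9. The count was 113 without the G9a shRNA array and 0 without the CL1-5 control, HA-G9a or vector array (3491, 2010 and 1877 at an unadjusted p under 0.05), each fit with 1 residual degree of freedom and a lone array assumed to vary like the other line. Over these 11 alternatives the DNMT3B difference stayed between -2.01 and -1.51, with limma adjusted p-values from 0.0126 to 0.256, and the TET3 difference between 0.57 and 1.06, from 0.110 to 0.569. The cause of these moves was not tested. Signals near the floor limit the dim probe sets of TET1, DNMT3A and MBD2.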
